A study of Homo sapiens with 4 samples.

Results

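Polyadenylated RNA 3′ ends were examined in the histone gene clusters of chromosomes 6 and 1. Their members were all 3′ end positions, on both strands, in 3 hg19 windows: chr6:26015000-26290000, chr6:27770000-27870000 and chr1:149780000-149865000, 460 kb in all. The windows hold replication-dependent histone genes, and their edges hold a few other genes. They contained 1020 of the 1749181 positions of the series: 410 with CF Im 68 siRNA, 293 with CstF-64 siRNA, 460 with control siRNA and 439 without siRNA. The positions were chosen by place alone and not by any read number, but the windows were set with earlier results of these data known.

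The samples were HEK293 cells, an established line derived from human embryonic kidney, with 1 library in each of 4 groups. Cells were treated for 3 days with an siRNA against CF Im 68, with an siRNA against CstF-64 or with a scrambled control siRNA, or received no siRNA. A-seq was used to count 3′ ends: RNA with a poly(A) tail is captured on oligo-dT and reverse transcription starts at the junction of transcript and tail. The libraries held 12792623 reads with CF Im 68 siRNA, 7343112 with CstF-64 siRNA, 13443454 with control siRNA and 15806975 without siRNA. With a single library each, variation between cultures was not measured, and the difference between the control libraries serves as the only background. How far the siRNAs lowered their targets was not analysed here. All intervals below are exact 95% intervals that cover counting error only.

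Replication-dependent histone mRNAs form a class of metazoan mRNAs that normally carry no poly(A) tail. Their 3′ ends form by a single cleavage after a conserved stem-loop, which SLBP binds, with the U7 snRNP bound downstream and CPSF-73 as the nuclease. CstF-64 is known as a part of the complex that makes this cut, and CF Im 68 as a factor that contacts the U7 snRNP, besides their roles at ordinary poly(A) sites. At those, CstF-64 contacts U- and GU-rich RNA past the cut, and cleavage factor I, of which CF Im 68 is a subunit, recognises UGUA ahead of it. Some histone genes also give polyadenylated transcripts, from a poly(A) site downstream of the stem-loop. RefSeq lists 55 protein-coding histone genes of these families on the whole of chromosome 6 of GRCh38.p14, with a median length of 489 nt, and 13 on chromosome 1, with 518 nt. Gene models longer than 1000 nt, well above that median, number 5 on chromosome 6, namely H2BC4, H2BC5, H2BC12, H3C4 and H3C6. On chromosome 1 they number 3, namely H2BC18, H2BC21 and H4C15. The deposited coordinates are on another build, hg19, so no position is assigned to a gene here and sites are named by place.

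The designed oligonucleotides set what was depleted and what was counted. They are shown here in lower case, the siRNAs without their unspecified first bases, and the capitals in the adapter mark the 6 bases of poly(A) tail ahead of it.
CF Im 68 siRNA: gaccgagauuacauggaua
CstF-64 siRNA: ccugaaugggcgcgaauuc
3′ adapter: AAAAAAtggaattctcgggtgccaagg
An end was therefore read only where at least a short run of A followed it. Such a run may be a tail or an A-rich stretch within a transcript, and the deposited positions do not separate these.

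Most reads of polyadenylated ends in the windows came from a single place. Positions within 25 nt of a local maximum were joined to clusters, 528 in the windows, and clusters whose mean level reached 1 RPM (1 read in a library of 1000000) are called sites. Of the 528 clusters, 23 were sites, numbered 1 to 23 by their mean level, and 505 were weaker. The weakest site averaged 1.03 RPM and the strongest cluster below the limit 0.982 RPM. The first chromosome 6 window held 10 sites, 7 of them on the plus strand, the second held 7, of which 6 were on the plus strand, and the chromosome 1 window held 6, of which 4 were on the plus strand. Divided into stretches of 1 kb, 239 of 460 held any read in any library, and 294 of the clusters consisted of 1 read. Site 1, at chr6:26055935 on the minus strand, averaged 198 RPM and ranked 664th of the 33723 sites of the whole series. Site 2, at chr6:26171575 on the plus strand, averaged 18.6 RPM and ranked 6264th.

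**Figure D1:**
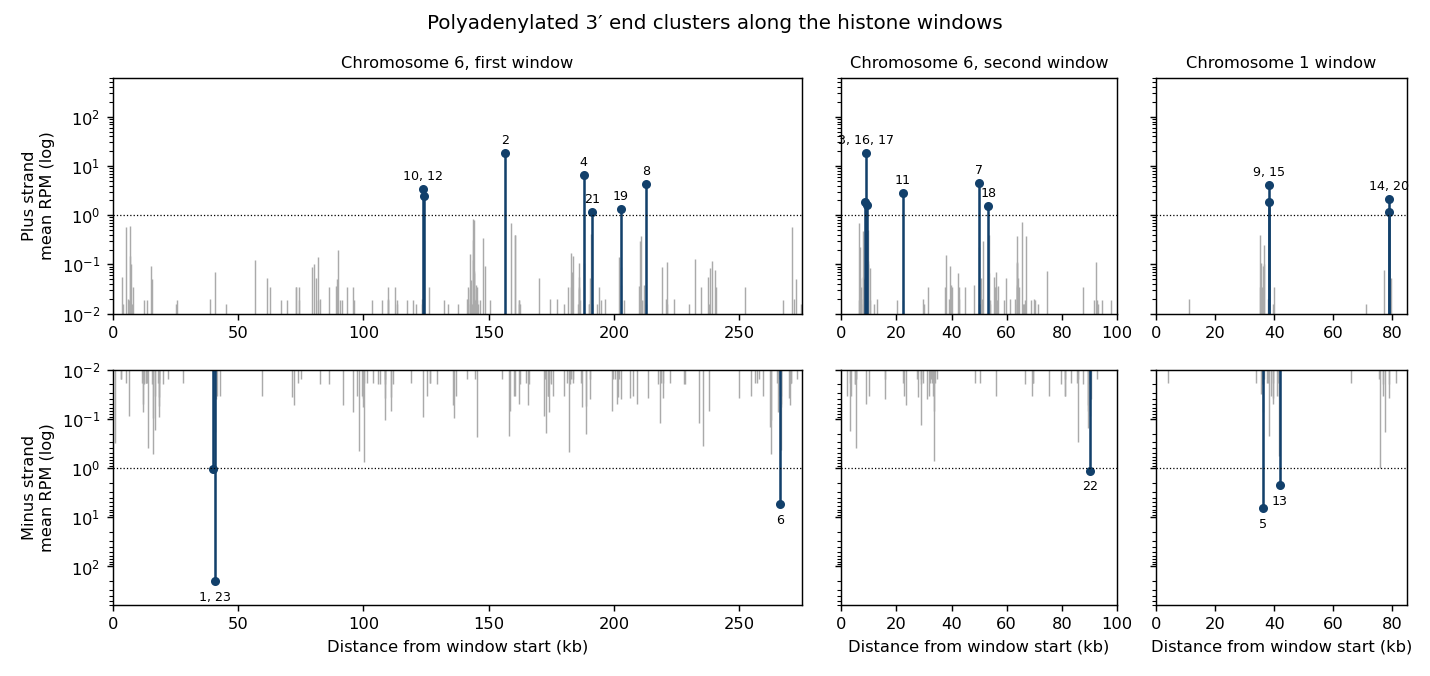
Mean level over the 4 libraries of every 3′ end cluster in the 3 windows, by distance from the window start in kb, with the plus strand in the upper row and the minus strand, pointing down, in the lower row; the level axis is logarithmic. Blue lines with points are the 23 sites with their numbers, grey lines the 505 clusters below 1 RPM (dotted line), and site 1 stands above all others at 198 RPM.

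Reads of the windows were fewer with either depletion than in either control library. They numbered 3505 with CF Im 68 siRNA, 2120 with CstF-64 siRNA, 5419 with control siRNA and 5635 without siRNA. Scaled by library total this was 274 RPM with CF Im 68 siRNA (interval 265 to 283), 289 RPM with CstF-64 siRNA (277 to 301), 403 RPM with control siRNA (392 to 414) and 356 RPM without siRNA (347 to 366). By this scaling, the intervals of the depleted libraries overlapped each other and neither control. The level with CF Im 68 siRNA was 0.680 of that with control siRNA (0.651 to 0.709) and 0.769 of that without siRNA (0.737 to 0.802). For CstF-64 siRNA these ratios were 0.716 (0.681 to 0.753) and 0.810 (0.770 to 0.851). Control siRNA itself stood at 1.13 times the level without siRNA (1.09 to 1.17). With TMM factors, another scaling of library size, the level was 251 with CF Im 68 siRNA and 314 with CstF-64 siRNA. The controls then had 386 with control siRNA and 374 without siRNA. The depleted libraries thus stood further apart and the controls closer together. Mitochondrial reads took 3.75% of the library with CF Im 68 siRNA, 1.79% with CstF-64 siRNA, 1.53% with control siRNA and 1.17% without siRNA, and without them the window level with CF Im 68 siRNA was 285 RPM, still below either control.

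Most of this difference lay in site 1. Without it, the windows had 124 RPM with CF Im 68 siRNA, 131 RPM with CstF-64 siRNA, 139.5 RPM with control siRNA and 134 RPM without siRNA. The ratios to control siRNA were then 0.887 (0.829 to 0.949) for CF Im 68 siRNA and 0.942 (0.870 to 1.02) for CstF-64 siRNA, and the ratios to no siRNA were 0.920 (0.862 to 0.982) and 0.977 (0.905 to 1.05). The interval of the CstF-64 library thus included an equal level against either control. Counted as distinct positions, scaled by all distinct positions of the library, which ignores how often each was read, CstF-64 siRNA stood at 1.10 times control siRNA (0.943 to 1.27) and 1.03 times no siRNA (0.881 to 1.19). CF Im 68 siRNA stood at 0.945 (0.825 to 1.08) and 0.884 (0.771 to 1.01) by the same count. All of these intervals included 1. They treat distinct positions as if these were independent reads, although the number of positions found also depends on depth, so they are only a rough guide.

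**Figure D2:**
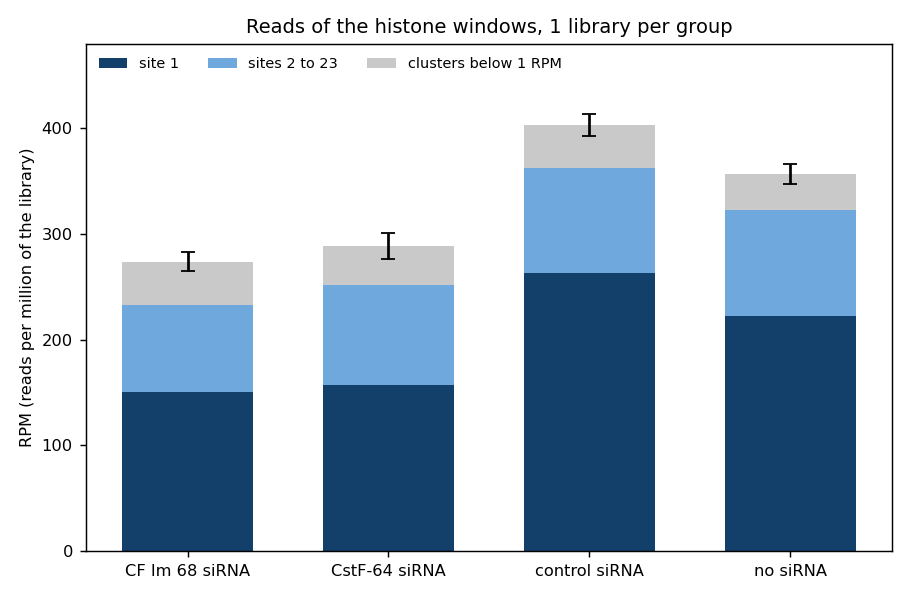
Level of the windows in RPM in each library, 1 library per group, with bars split into site 1, sites 2 to 23 and clusters below 1 RPM; error bars are exact 95% intervals of the whole bar for counting error. The whole bars reach 274, 289, 403 and 356 RPM from left to right, and the site 1 part differs most between the depleted and the control libraries.

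The windows did not behave alike. In the first chromosome 6 window, which holds site 1, the level was 212 RPM with CF Im 68 siRNA, 227 RPM with CstF-64 siRNA, 341 RPM with control siRNA and 285 RPM without siRNA. The second chromosome 6 window had 37.3 RPM with CF Im 68 siRNA, 38.5 RPM with CstF-64 siRNA, 41.1 RPM with control siRNA and 52.9 RPM without siRNA. There the library without siRNA stood apart, since control siRNA was at 0.778 of it (0.697 to 0.867) and both depletions overlapped control siRNA. On chromosome 1 the order was turned round, with 25.1 RPM with CF Im 68 siRNA, 23.3 RPM with CstF-64 siRNA, 21.1 RPM with control siRNA and 18.3 RPM without siRNA. This lay on the plus strand, where CF Im 68 siRNA was 1.37 times control siRNA (1.08 to 1.74) and 1.73 times no siRNA (1.36 to 2.21), and CstF-64 siRNA 1.38 times (1.05 to 1.82) and 1.75 times (1.32 to 2.31). On the minus strand of chromosome 1 all ratios to the controls lay between 0.886 and 1.12, with intervals that included 1.

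Site 1 carried 1922 reads with CF Im 68 siRNA, 1155 with CstF-64 siRNA, 3543 with control siRNA and 3509 without siRNA. The level was 150.2 RPM with CF Im 68 siRNA (144 to 157), 157 RPM with CstF-64 siRNA (148 to 167), 264 RPM with control siRNA (255 to 272) and 222 RPM without siRNA (215 to 229). Scaled by library total, both depleted libraries lay below both controls, and their own intervals overlapped. The ratio of CF Im 68 siRNA was 0.570 to control siRNA (0.539 to 0.603) and 0.677 to no siRNA (0.640 to 0.716), and that of CstF-64 siRNA 0.597 (0.558 to 0.638) and 0.709 (0.662 to 0.757). Control siRNA was 1.19 times no siRNA (1.13 to 1.24). TMM or DESeq2 factors would lower the level with CF Im 68 siRNA and raise that with CstF-64 siRNA, setting the depleted libraries further apart. Site 1 made up 54.8% of window reads with CF Im 68 siRNA, 54.5% with CstF-64 siRNA, 65.4% with control siRNA and 62.3% without siRNA. The differences stayed below 2-fold, the limit used for calls here. Of all 33723 sites, 22.7% lay below both controls with both depletions, and 20.6% above both. A lower level at a poly(A) site can come with less transcript or with less use of the site, and 3′ end counts do not tell these apart.

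Read ends within site 1 were spread over 21 positions in a stretch of 29 nt. Whether each is a cleavage position was not tested. The position with the most reads held 54.0% of the site with CF Im 68 siRNA (51.7 to 56.3), 52.3% with CstF-64 siRNA (49.4 to 55.2), 54.1% with control siRNA (52.5 to 55.8) and 47.7% without siRNA (46.0 to 49.4). The position 2 nt further 3′ held 24.1% with CF Im 68 siRNA (22.2 to 26.1), 22.3% with CstF-64 siRNA (19.9 to 24.8), 25.2% with control siRNA (23.8 to 26.7) and 31.7% without siRNA (30.2 to 33.3). At the second position the interval of the library without siRNA lay above all siRNA-treated ones. At the first it lay below CF Im 68 and control siRNA and just met that of CstF-64 siRNA. The position 3 nt further 5′ held 10.5% with CstF-64 siRNA (8.77 to 12.4), against 6.35% with CF Im 68 siRNA, 7.28% with control siRNA (6.45 to 8.19) and 6.44% without siRNA. The mean end position moved little. It lay 3′ of the most used position by 0.384 nt (CF Im 68 siRNA), 0.150 nt (CstF-64 siRNA), 0.353 nt (control siRNA) and 0.569 nt (no siRNA). The SD over reads was 2.27 to 2.46 nt. The leading position held 51.7% of all site 1 reads, and the median over the 5917 sites of the series with at least 1000 reads was 68.0%.

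**Figure D3:**
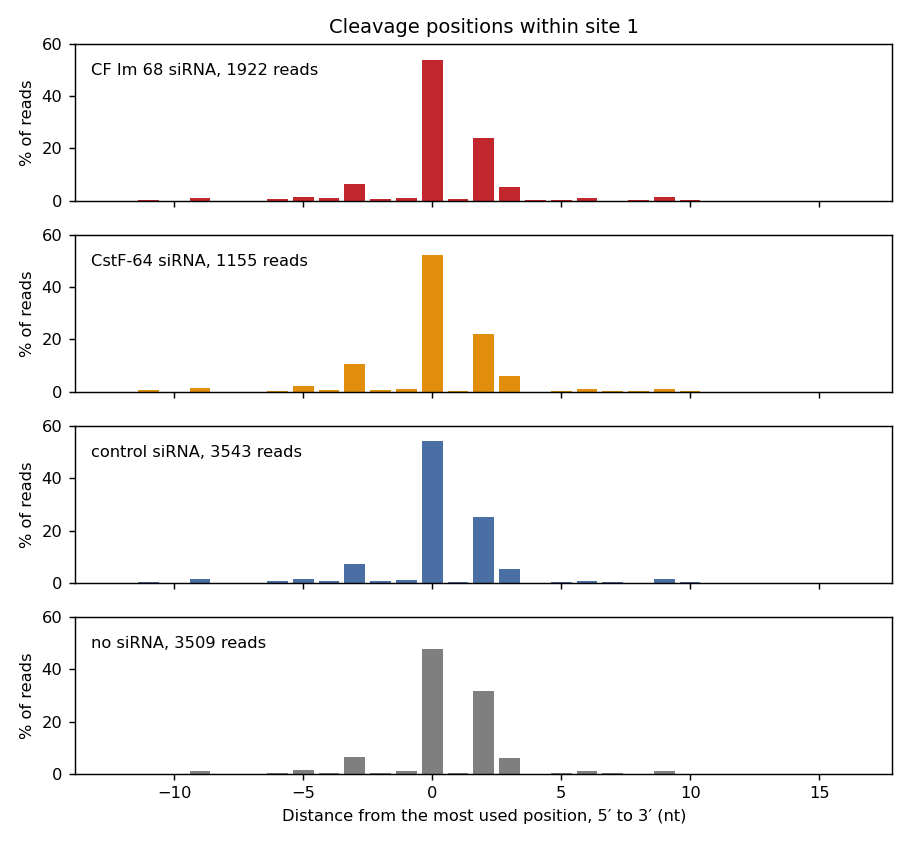
Share of the reads of site 1 at each end position, in percent of the site in that library, by distance in nt from the most used position, 5′ to 3′. Each panel is 1 library. The leading position holds 54.0, 52.3, 54.1 and 47.7% from top to bottom, and the position 2 nt further 3′ is highest, at 31.7%, without siRNA.

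A minor end lay 947 nt downstream of site 1, at chr6:26054988 on the minus strand. This was site 23, the weakest of the sites, and it was singled out after its values were seen. It met the limit of a mean of 1 RPM through the other libraries alone, so its choice was not independent of this pattern. It had 0 reads with CF Im 68 siRNA, 9 with CstF-64 siRNA, 26 with control siRNA and 15 without siRNA. In levels this was 1.23 RPM with CstF-64 siRNA, 1.93 RPM with control siRNA and 0.949 RPM without siRNA. At site 23, control siRNA was 2.04 times no siRNA (1.04 to 4.14). Against a floor of 3 counts in the CF Im 68 library, and with the control counts taken as exact, its level there was at least 8.25-fold lower than with control siRNA and at least 4.05-fold lower than without siRNA. The exact intervals, which cover the counting error of the controls too, allowed ratios of up to 0.160 to control siRNA and 0.344 to no siRNA. Of the summed reads of site 1 and site 23, site 23 took 0 of 1922 with CF Im 68 siRNA, which allows a share of up to 0.156% by the floor of 3 counts and up to 0.192% by the exact interval. It took 0.773% with CstF-64 siRNA (0.354 to 1.46), 0.728% with control siRNA (0.476 to 1.07) and 0.426% without siRNA (0.238 to 0.701). Over all positions 26 to 2000 nt downstream of site 1 there was 1 read with CF Im 68 siRNA, against 15 with CstF-64 siRNA, 29 with control siRNA and 20 without siRNA. These include the reads of site 23 itself, and outside it there were 1 with CF Im 68 siRNA, 6 with CstF-64 siRNA, 3 with control siRNA and 5 without siRNA. Upstream, over the same reach, each library had 1 or 2 reads. Site 23 held too small a share of its locus to enter the test of paired sites.

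The other sites of chromosome 6 differed in which library stood out. Site 2 had 162 reads with CF Im 68 siRNA, 154 with CstF-64 siRNA, 313 with control siRNA and 277 without siRNA, and the levels were 12.7 RPM with CF Im 68 siRNA, 20.97 RPM with CstF-64 siRNA, 23.3 RPM with control siRNA and 17.5 RPM without siRNA. It was lowest with CF Im 68 siRNA, at 0.544 of control siRNA (0.447 to 0.660) and 0.723 of no siRNA (0.592 to 0.880). Scaled by library total, the level with CstF-64 siRNA lay between the controls, while TMM or DESeq2 factors would place it above both. Control siRNA was 1.33 times no siRNA (1.13 to 1.57). Site 2 was sharp, with 93.7% of its reads at 1 position.

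Site 3, at chr6:27779077 on the plus strand of the second window, had 14.0 RPM with CF Im 68 siRNA, 15.0 RPM with CstF-64 siRNA, 16.4 RPM with control siRNA and 28.2 RPM without siRNA. All siRNA-treated libraries lay together and the library without siRNA lay above them. Control siRNA was at 0.580 of no siRNA there (0.491 to 0.683), a difference of about the size seen for the depletions at site 1.

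Site 4, at chr6:26202923 on the plus strand, had 52 reads with CF Im 68 siRNA, 62 with CstF-64 siRNA, 116 with control siRNA and 88 without siRNA. Its level with CF Im 68 siRNA, 4.06 RPM, was below the 8.63 RPM with control siRNA, and its interval of 3.04 to 5.33 RPM overlapped that of 4.47 to 6.86 RPM without siRNA. With CstF-64 siRNA site 4 had 8.44 RPM, 1.52 times no siRNA (1.08 to 2.12). Control siRNA was 1.55 times no siRNA there (1.16 to 2.07). Site 8, at chr6:26227700 on the plus strand, was lowest with CstF-64 siRNA, with 14 reads and 1.91 RPM (1.04 to 3.20), against 60 reads and 4.46 RPM (3.41 to 5.74) with control siRNA and 115 reads and 7.28 RPM (6.01 to 8.73) without siRNA. With CF Im 68 siRNA it had 49 reads and 3.83 RPM. That was 0.858 of control siRNA (0.576 to 1.27) and 0.526 of no siRNA (0.369 to 0.742). The intervals of the CstF-64 library met neither control there, and the controls did not overlap each other either.

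Site 10, at chr6:26138602 on the plus strand, was highest with CF Im 68 siRNA. It had 79 reads there, 23 with CstF-64 siRNA, 37 with control siRNA and 25 without siRNA, and the levels were 6.18 RPM with CF Im 68 siRNA, 3.13 RPM with CstF-64 siRNA, 2.75 RPM with control siRNA and 1.58 RPM without siRNA. The ratio of CF Im 68 siRNA was 2.24 to control siRNA (1.5 to 3.41) and 3.90 to no siRNA (2.46 to 6.39). Against no siRNA, CstF-64 siRNA stood at 1.98 times (1.07 to 3.64) and control siRNA at 1.74 times (1.02 to 3.02). The downstream neighbour of site 10, site 12 at chr6:26139184, 582 nt away, went the other way. Its level was 1.88 RPM with CF Im 68 siRNA, 1.91 RPM with CstF-64 siRNA, 3.35 RPM with control siRNA and 2.47 RPM without siRNA. CF Im 68 siRNA was there at 0.560 of control siRNA (0.327 to 0.940) and 0.760 of no siRNA (0.437 to 1.30).

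Site 18, at chr6:27823353 on the plus strand, was low with either depletion. It had 10 reads with CF Im 68 siRNA and 7 with CstF-64 siRNA, against 29 with control siRNA and 37 without siRNA, and its level was 0.782 RPM with CF Im 68 siRNA, 0.953 RPM with CstF-64 siRNA, 2.16 RPM with control siRNA and 2.34 RPM without siRNA. The ratio to control siRNA was 0.362 for CF Im 68 siRNA (0.158 to 0.765) and 0.442 for CstF-64 siRNA, where the interval of 0.163 to 1.03 included 1. Against no siRNA it was 0.334 for CF Im 68 siRNA (0.148 to 0.685) and 0.407 for CstF-64 siRNA (0.153 to 0.925). Site 19, at chr6:26217705, also had fewer reads with either depletion, 10 with CF Im 68 siRNA and 6 with CstF-64 siRNA, against 21 with control siRNA and 33 without siRNA, but the intervals of 0.375 to 1.44 RPM with CF Im 68 siRNA and 0.967 to 2.39 RPM with control siRNA overlapped. Against no siRNA the ratios of site 19 were 0.374 (0.165 to 0.778) for CF Im 68 siRNA and 0.391 (0.134 to 0.946) for CstF-64 siRNA, and neither interval included 1.

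At site 17, at chr6:27779175 on the plus strand, the level was 1.41 RPM with CF Im 68 siRNA, 0.953 RPM with CstF-64 siRNA, 1.93 RPM with control siRNA and 2.21 RPM without siRNA. The ratio of CstF-64 siRNA was 0.493 to control siRNA (0.181 to 1.17) and 0.431 to no siRNA (0.161 to 0.984), so that the interval included 1 for the first and not for the second.

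At the remaining sites of chromosome 6, no ratio of a depletion to a control had an interval without 1, except the one given here for site 6. Site 6, at chr6:26281282 on the minus strand, had 6.49 RPM with CF Im 68 siRNA, 6.13 RPM with CstF-64 siRNA, 4.91 RPM with control siRNA and 4.11 RPM without siRNA. The ratio of CF Im 68 siRNA to no siRNA there was 1.58 (1.13 to 2.22), and to control siRNA 1.32 (0.945 to 1.85). Site 7, at chr6:27819969 on the plus strand, lay between 4.22 and 5.17 RPM in all libraries. Site 11 at chr6:27792258, site 16 at chr6:27778648 and site 21 at chr6:26206267, all on the plus strand, and site 22 at chr6:27860354 on the minus strand ranged from 0.818 to 3.40 RPM over the libraries. At site 11, control siRNA was 1.67 times no siRNA (1.03 to 2.73).

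**Figure D4:**
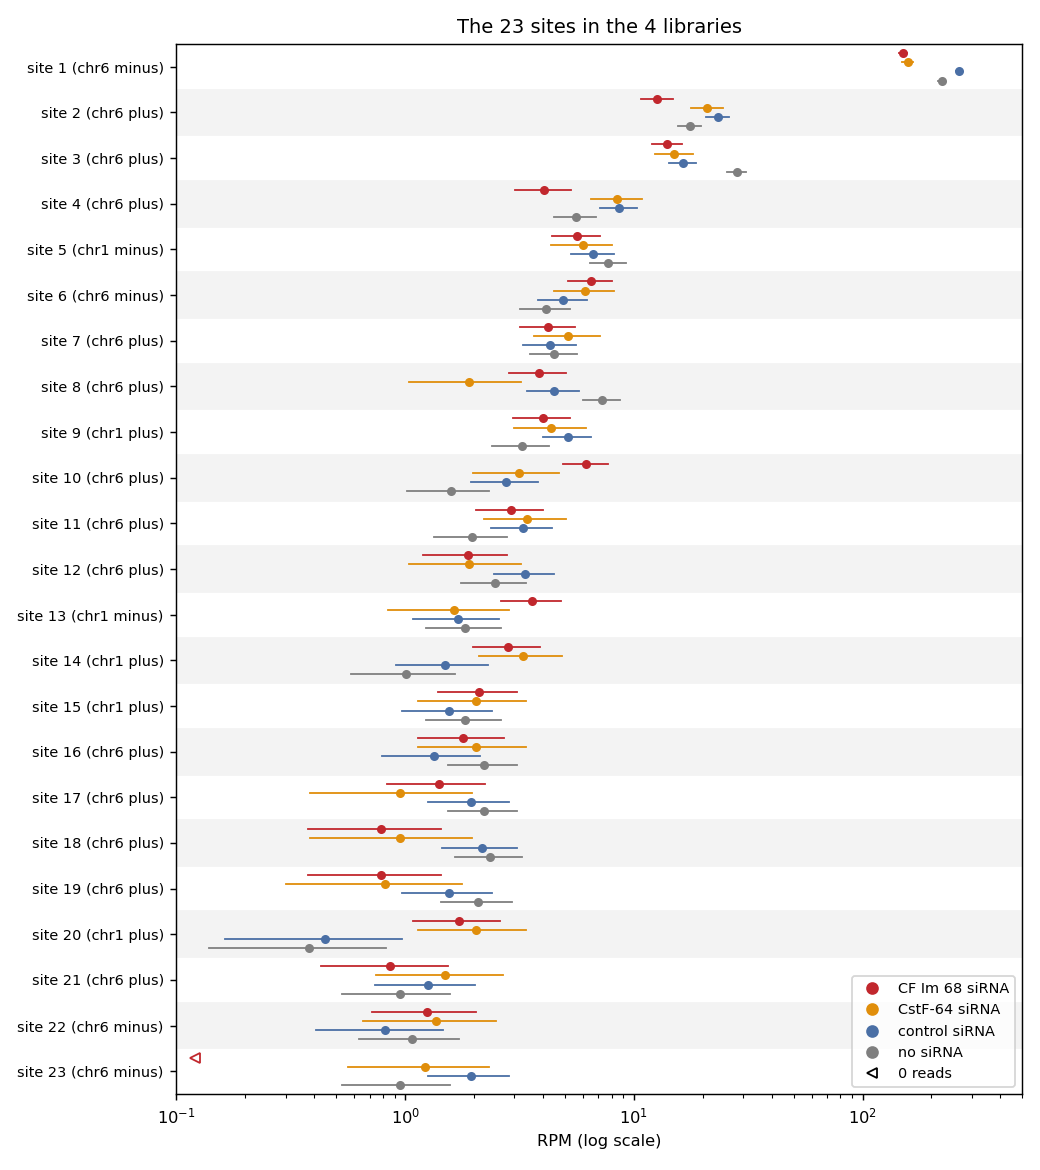
Level in RPM (logarithmic axis) of each of the 23 sites in the 4 libraries, with points for the level and lines for its exact 95% interval for counting error; rows run from site 1 at the top to site 23, and the open triangle marks 0 reads. Site 1 is lower in both depleted libraries, sites 14 and 20 are higher in both, and site 23 is at 0 with CF Im 68 siRNA.

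On chromosome 1 the clearest difference was a pair of neighbouring plus-strand sites, 38 nt apart, that were higher with either depletion. Site 14, at chr1:149858923, had 36 reads with CF Im 68 siRNA, 24 with CstF-64 siRNA, 20 with control siRNA and 16 without siRNA. Site 20, at chr1:149858961, had 22 reads with CF Im 68 siRNA and 15 with CstF-64 siRNA, against 6 in each control library. Together they had 4.53 RPM with CF Im 68 siRNA and 5.31 RPM with CstF-64 siRNA, against 1.93 RPM with control siRNA and 1.39 RPM without siRNA. The sum with CF Im 68 siRNA was 2.34 times control siRNA (1.45 to 3.88) and 3.26 times no siRNA (1.96 to 5.59), and with CstF-64 siRNA 2.75 times (1.63 to 4.70) and 3.82 times (2.21 to 6.76). Clusters were limited to 25 nt, and whether the pair forms 1 broad site was not tested. Site 20 reached the mean of 1 RPM only through the depleted libraries, so the limit favoured its higher level there.

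The other 4 sites of chromosome 1 differed less or in 1 library. Site 13, at chr1:149821830 on the minus strand, had 46 reads and 3.60 RPM with CF Im 68 siRNA, 12 reads and 1.63 RPM with CstF-64 siRNA, 23 reads and 1.71 RPM with control siRNA and 29 reads and 1.83 RPM without siRNA. It was high with CF Im 68 siRNA alone, at 2.10 times control siRNA (1.25 to 3.63) and 1.96 times no siRNA (1.21 to 3.24). Site 5, at chr1:149816058 on the minus strand, had 5.63 RPM with CF Im 68 siRNA, 5.99 RPM with CstF-64 siRNA, 6.62 RPM with control siRNA and 7.72 RPM without siRNA. Its ratio of CF Im 68 siRNA to no siRNA was 0.729 (0.537 to 0.984). Site 9, at chr1:149818053 on the plus strand, ranged from 3.23 to 5.13 RPM over the libraries, and site 15, at chr1:149818284, from 1.56 to 2.11 RPM. For both, all ratios of a depletion to a control had intervals that included 1. At site 9, control siRNA was 1.59 times no siRNA (1.09 to 2.33).

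Set against the whole series, few sites passed a 2-fold limit. A site was counted as changed when its RPM plus a pseudocount of 1 was at least 2-fold higher, or lower, than in each control library. With CF Im 68 siRNA this held for 0 of 23 sites in either direction, against a background over all 33723 sites of 8.57% higher and 1.73% lower. With CstF-64 siRNA it held for 1 site higher, site 20, and 0 lower, against 1.65% higher and 5.07% lower over all sites. Site 20 had 0.446 RPM with control siRNA and 0.380 RPM without siRNA, so it became a site only through the depleted libraries. Its call is thus partly set by the limit of 1 RPM. Control siRNA against no siRNA gave 0 window sites in either direction, with 4.62% of all sites higher and 1.8% lower. Counts of 0 and 1 among 23 sites are too small to set the windows apart from these backgrounds. The pseudocount holds back sites near 1 RPM. With 0.1 RPM in its place, CF Im 68 siRNA gave 2 sites higher (10 and 20) and 2 lower (18 and 23). Over all sites, 11.8% were then higher and 4.35% lower. CstF-64 siRNA gave 2 higher (14 and 20) and 2 lower (8 and 18), where 3.44% of all sites were higher and 11.1% lower. These counts, too, are too small to set the windows apart from the background.

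Small differences leaned to lower levels with CF Im 68 siRNA. Of the 23 sites, 13 were below both control libraries with CF Im 68 siRNA and 7 above both, where 31.1% of all sites were below both and 43.9% above both. With CstF-64 siRNA 9 were below and 9 above, where 43.6% of all sites were below and 31.1% above. These counts rest on scaling by library total and were not repeated with other factors. The depletions share their controls. On the log2 scale with the same pseudocount, the median difference of window sites between CF Im 68 and control siRNA was −0.20, against 0.04 over all sites, and between CF Im 68 siRNA and no siRNA −0.20, against 0.18. For CstF-64 siRNA the medians were −0.04, against −0.14, and 0.17, against −0.04. For the window sites, log2 differences between CF Im 68 and control siRNA ran from −1.55 at site 23 to 0.94 at site 10.

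Use of alternative ends was compared where sites of the same strand lay within 10 kb. In 8 such places the most used sites formed a proximal and a distal site, and 3 had at least 50 reads in every library and were tested by Fisher's exact test (two-sided), with Benjamini-Hochberg adjustment over the 4793 tested loci of the series. This test compares libraries and not conditions. Of the 3, 1 moved to the proximal site with CF Im 68 siRNA, by an adjusted p below 0.05 and at least 10 points against both controls, and 0 with CstF-64 siRNA. Over all tested loci, 24.2% had gone to the proximal and 2.63% to the distal side with CF Im 68 siRNA, and 8.2% to the proximal and 3.59% to the distal side with CstF-64 siRNA. The moved pair was that of sites 13 and 5 on the minus strand of chromosome 1, 5772 nt apart. Its proximal site 13 held 39.0% of pair reads with CF Im 68 siRNA (30.1 to 48.4), 21.4% with CstF-64 siRNA (11.6 to 34.4), 20.5% with control siRNA (13.5 to 29.2) and 19.2% without siRNA (13.3 to 26.4). The adjusted p of Fisher's exact test was 0.00592 for CF Im 68 and 1 for CstF-64 siRNA, each against control siRNA. Whether both sites end the same transcript was not tested.

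The other tested pairs stayed within the limits. For sites 4 and 21 on chromosome 6, 3344 nt apart, the proximal share was 82.5% with CF Im 68 siRNA, 84.9% with CstF-64 siRNA, 87.2% with control siRNA and 85.4% without siRNA. For sites 16 and 3, 429 nt apart, it was 11.4% with CF Im 68 siRNA, 12% with CstF-64 siRNA, 7.56% with control siRNA and 7.28% without siRNA. For sites 4 and 21 the adjusted p of Fisher's exact test was 0.488 for CF Im 68 and 0.831 for CstF-64 siRNA, and for sites 16 and 3 it was 0.269 for CF Im 68 and 0.353 for CstF-64 siRNA. The intervals of all 4 libraries overlapped in both pairs.

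Among the 5 pairs with fewer reads, sites 10 and 12 of chromosome 6 differed most. Site 10, the proximal one by 582 nt, held 76.7% of 103 pair reads with CF Im 68 siRNA (67.3 to 84.5), 62.2% of 37 with CstF-64 siRNA (44.8 to 77.5), 45.1% of 82 with control siRNA (34.1 to 56.5) and 39.1% of 64 without siRNA (27.1 to 52.1). At sites 7 and 18, 3384 nt apart, the proximal share was 84.4% with CF Im 68 siRNA (73.1 to 92.2) and 84.4% with CstF-64 siRNA (70.5 to 93.5), against 66.7% with control siRNA (55.7 to 76.4) and 65.7% without siRNA (56.0 to 74.6). With a limit of 20 reads, which admits all 8 pairs and 6119 loci in the series, both of these also moved to the proximal site with CF Im 68 siRNA, with adjusted p of 5.87e-05 and 0.0327 by Fisher's exact test. Then 3 of 8 pairs had moved to the proximal site, beside 23.7% of the 6119 loci. With CstF-64 siRNA the adjusted p was 0.279 for sites 10 and 12 and 0.133 for sites 7 and 18 by the same test. The remaining pairs were not called in either library. These were sites 9 and 15, 231 nt apart, sites 14 and 20, 38 nt apart, and sites 19 and 8, 9995 nt apart, and all library intervals overlapped in each.

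**Figure D5:**
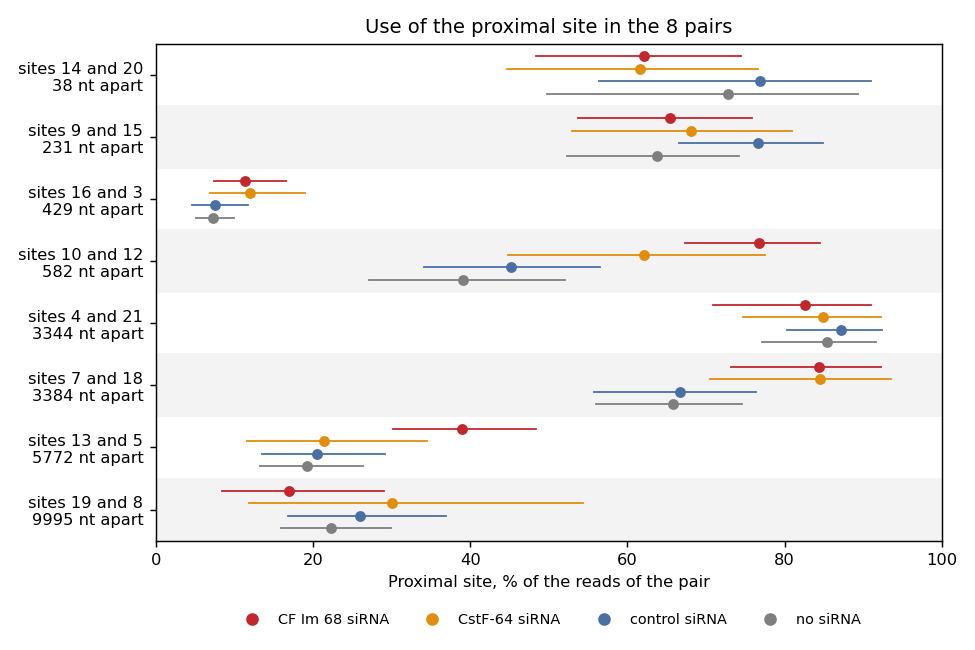
Share of the proximal site in percent of the reads of the pair, for the 8 pairs of sites in the windows, ordered by the distance between the sites; points are single libraries and lines exact 95% intervals for counting error. The proximal share is higher with CF Im 68 siRNA at sites 10 and 12 (76.7%), 7 and 18 (84.4%) and 13 and 5 (39.0%), and sites 7 and 18 have 84.4% with CstF-64 siRNA as well.

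Away from the sites, the 505 clusters below 1 RPM took 522 reads with CF Im 68 siRNA, 273 with CstF-64 siRNA, 541 with control siRNA and 529 without siRNA. The level was 40.8 RPM with CF Im 68 siRNA (37.4 to 44.5), 37.2 RPM with CstF-64 siRNA (32.9 to 41.9), 40.2 RPM with control siRNA and 33.5 RPM without siRNA, with ratios to control siRNA of 1.01 (0.897 to 1.15) for CF Im 68 and 0.924 (0.796 to 1.07) for CstF-64 siRNA. The depleted libraries and control siRNA overlapped, and control siRNA was 1.20 times no siRNA (1.06 to 1.36). Of all window reads, weak clusters took 14.9% with CF Im 68 siRNA (13.7 to 16.1), 12.9% with CstF-64 siRNA (11.5 to 14.4), 9.98% with control siRNA (9.20 to 10.8) and 9.39% without siRNA (8.64 to 10.2). In the rest of chromosomes 1 to 22 and X, the share was 6.92% with CF Im 68 siRNA, 5.27% with CstF-64 siRNA, 6.21% with control siRNA and 4.67% without siRNA, below the window interval in each library. Leaving site 1 aside, for which the rest of the genome has no counterpart left out, weak clusters took 33.0% of window reads with CF Im 68 siRNA (30.7 to 35.4), 28.3% with CstF-64 siRNA (25.5 to 31.2), 28.8% with control siRNA (26.8 to 30.9) and 24.9% without siRNA (23.1 to 26.8).

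Clusters seen in several libraries were counted as well, without a test. All 4 libraries shared 12.5% of the 528 window clusters, against 7.42% of the 1151365 clusters in the rest of those chromosomes, and 61.0% of window clusters, against 77.3%, came from 1 library. A cluster of 1 read can only be in 1 library, and such clusters were 55.7% of those in the windows and 71.3% of those elsewhere. Among clusters of 2 or more reads, all libraries shared 28.2% in the windows and 25.9% elsewhere. Single positions gave similar shares, with 9.51% of window positions and 8.94% of the rest in all libraries.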

How the data were processed

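The authors deposited unnormalized read counts for each nucleotide and strand at which ends mapped. The build was hg19, also called GRCh37, according to the submitters' processing notes. Aligner, handling of reads with several matches and filters: not given in the sources used here. Histone genes have near-identical copies, so reads could be split or lost between them. The running numbers in the deposited files skip 10.1 to 11.6% of entries in the windows and 10.2 to 12.2% in whole libraries; why they are missing is not stated. No molecular identifiers were given. Intervals (Clopper-Pearson for shares, conditional binomial for ratios) therefore cover counting error only.

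Positions were clustered within 25 nt, and sites needed a mean of 1 RPM on chromosomes 1 to 22 and X. Python 3.11.15, scipy 1.17.1, edgeR 4.0.16 (TMM factors only) and DESeq2 1.42.0 (size factors only) were used. The functions were tested on simulated data. Other scalings, pseudocounts, thresholds and cluster widths were tried. The windows, rules and lists were chosen with earlier results of these data known. Named were the 20 sites with the highest mean level, changed sites, all tested pairs and the strongest position of each window and strand. Site 23 and the untested pairs were added after their values were seen. No annotation of hg19 was used here, so distances to gene ends, the depleted genes, cell markers and histone processing factors were not analysed.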

Additional observations from a re-analysis of the deposited data

Results flagged for a closer look

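Site 13, at chr1:149821830 on the minus strand, lay above both controls with CF Im 68 siRNA and slightly below both with CstF-64 siRNA. It had 3.60 RPM with CF Im 68 siRNA and 1.63 RPM with CstF-64 siRNA, against 1.71 RPM with control siRNA and 1.83 RPM without siRNA. The ratios of CstF-64 siRNA, 0.955 to control siRNA (0.433 to 2.0) and 0.891 to no siRNA (0.414 to 1.80), had intervals that included 1. The level with CF Im 68 siRNA was 2.20 times that with CstF-64 siRNA (1.15 to 4.56). The difference was not tested, as each group had 1 library.

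Some clusters below 1 RPM, which no count of changed sites used, had more reads with a depletion than in either control, with intervals of both ratios above 1. At chr1:149815116 on the plus strand there were 14 reads with CF Im 68 siRNA and 2 with CstF-64 siRNA, against 1 with control siRNA and 2 without siRNA. At chr6:26225912 on the plus strand there were 13 with CF Im 68 siRNA and 0 with CstF-64 siRNA, against 2 with control siRNA and 5 without siRNA. At chr6:26115127 on the minus strand both depletions were higher, with 14 for CF Im 68 siRNA and 10 for CstF-64 siRNA, against 4 for control siRNA and 5 without siRNA. At chr6:26281599 on the minus strand there were 12 for CF Im 68 siRNA and 3 for CstF-64 siRNA, against 2 for control siRNA and 4 without siRNA, all at 1 position. These were picked from 505 weak clusters by their values. Only clusters higher with a depletion were searched for, and lower ones were not. The share of such clusters over the whole series was not computed.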

How the results depend on the processing

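The window level in the CF Im 68, CstF-64, control siRNA and no siRNA libraries, 274, 289, 403 and 356 RPM as reported, was 251, 314, 386 and 374 with TMM factors, 247, 318, 379 and 376 with DESeq2 size factors, 256, 263, 382 and 339 RPM from positions with at least 2 reads, 124, 131, 139.5 and 134 RPM without site 1, and 563, 653, 596 and 637 as distinct positions scaled by all distinct positions. Without mitochondrial reads it was 285 RPM after CF Im 68 siRNA. The ratio of CF Im 68 to control siRNA was 0.650 with either TMM or DESeq2 factors, 0.945 by distinct positions and 0.887 without site 1, and to no siRNA 0.670, 0.655, 0.884 and 0.920. For CstF-64 the ratio to control siRNA was 0.815, 0.837, 1.10 and 0.942, and to no siRNA 1.03 by distinct positions and 0.977 without site 1. By distinct positions the CstF-64 ratios were thus above 1. That count gives site 1 little weight by its construction.

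Counts of changed sites were small and moved with most settings. Percentages in brackets are the shares called over all sites of the series at the same setting. After CF Im 68 siRNA, 0 higher sites became 2 with a pseudocount of 0.1 (11.8%) or 0.5 (10.1%). They became 1 against no siRNA alone (16.3%) and 4 at a fold of 1.5 (16.5%). The 0 lower sites became 2 with a pseudocount of 0.1 (4.35%) or 0.5 (2.82%) and 2 at a fold of 1.5 (7.34%). They became 1 with clusters within 50 nt (1.7%), with DESeq2 factors (2.26%) and against control siRNA alone (3.85%). After CstF-64 siRNA, 1 higher site became 2 with a pseudocount of 0.1 (3.44%) and 0 at a mean of at least 5 RPM (1.41%). It became 2 against no siRNA alone (7.97%) and 2 at a fold of 1.5 (6.22%). The 0 lower sites became 2 with a pseudocount of 0.1 (11.1%) and 1 with 0.5 (7.81%). They became 1 against no siRNA alone (11.1%) and 3 at a fold of 1.5 (14.9%). A smaller pseudocount or fold admits more sites by construction. Of pairs, 3 moved after CF Im 68 siRNA with at least 20 reads and 0 with loci within 3 kb, which left 1 pair to test.

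The distance of ends from annotated genes was not run, as no hg19 annotation was used. No paired analysis was possible because each group had 1 library. Depth was lowest in the CstF-64 library, where 3 reads are 0.409 RPM.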
